A study of Homo sapiens with 6 samples.

Results

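The PI3K and AKT signalling core was described here as 9 genes of the 60483 for which the authors deposited counts. The 9 were chosen by function, with earlier results of these data known. They were the catalytic subunits PIK3CA, PIK3CB and PIK3CD, the regulatory subunits PIK3R1, PIK3R2 and PIK3R3, the kinases AKT1 and AKT2, and the phosphatase INPP4B. Some other members of these families were read only in lists beside the core, and the rest were not analysed here. RNA-seq had been done on A2780 cells, an ovarian carcinoma cell line, in 3 libraries of wild type cells (WT) and 3 libraries of the A2780 CDK12 KO clone (KO). CDK12 is a kinase of RNA polymerase II. The KO cells had been made with a CRISPR/Cas9 plasmid against exon 1 of CDK12 and are a single clone, obtained after 2 rounds of transfection and selection, so that an effect of the missing kinase and a property of this clone cannot be told apart. By the study's account the clone also carries more DNA and more chromosomes than its parent. All 6 libraries came from cells grown in the same medium, and no drug is named for any of them. WT libraries are numbered 1 to 3 here as in the labels, and KO libraries 1 to 3 are those the labels number 4 to 6.

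Class I PI3K is a dimer of a catalytic and a regulatory subunit that is recruited to activated receptors and phosphorylates the membrane lipid PIP2 to PIP3. PIP3 brings AKT to the membrane, where it is phosphorylated and in turn phosphorylates FOXO factors, GSK3, the TSC complex and other substrates, and lipid phosphatases such as INPP4B end the signal. PIK3CA is among the genes most often mutated or amplified in ovarian carcinoma, and PIK3CD is best known from leukocytes.

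Total counts per library ranged from 11098400 to 30899045, and WT library 3 was the smallest. In it 3 counts, taken as the floor, equal 0.270 CPM (counts scaled to the TMM-adjusted library total). CDK12 itself had 103, 125 and 117 CPM in WT and 99.0, 93.0 and 102 CPM in KO. The groups did not overlap, and the counts do not separate edited from unedited transcripts. Of 8 epithelial and ovarian carcinoma markers, KRT18, KRT8 and EPCAM reached 10 counts in every library, while KRT7 and MUC16 had at most 3 counts in any library. CDH1 had at most 4 counts and WT1 at most 6. PAX8, a marker of ovarian carcinoma, had 6, 6 and 2 counts in WT and 3, 1 and 0 in KO. Its means were 0.200 CPM in WT and 0.0531 CPM in KO. Nothing in the labels says that the libraries of a group came from separate cultures, so the p-values below measure only the spread between these libraries, which may be technical.

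Of the 9 genes, 8 had enough counts to be tested. PIK3R1 rose and PIK3CD and INPP4B fell past both thresholds of the study, a log2 fold change beyond 1 in size and an adjusted p below 0.05. Over all tested genes 8.30% rose and 7.73% fell past both. The test was the quasi-likelihood test of edgeR, with p-values adjusted by Benjamini-Hochberg over all 16198 tested genes. At that adjusted p alone, 3 of the 8 were higher in KO (PIK3CA, PIK3R1 and PIK3R3), 3 were lower (PIK3CD, AKT1 and INPP4B) and 2 did not pass (PIK3CB and AKT2). The background at that threshold was 31.9% higher and 32.0% lower. For 6 of the 8 the WT and KO values did not overlap, which held for 66.4% of all tested genes. The median log2 fold change of the 8 was -0.01, beside 0.00044 for all tested genes. INPP4B had passed the filter on low counts only through its WT libraries.

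**Figure D1:**
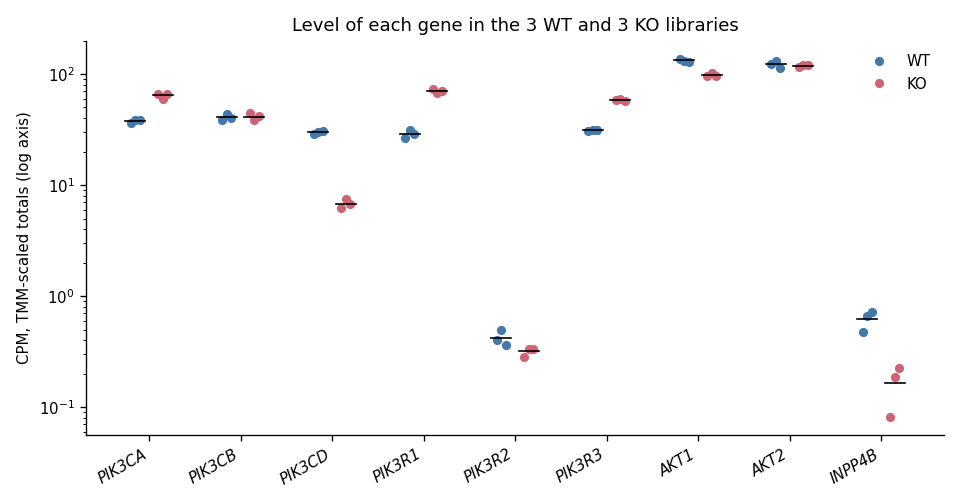
CPM on TMM-scaled totals (log axis) of each of the 9 genes in the 3 WT libraries (blue) and the 3 KO libraries (red), with black lines at the group means. PIK3CD fell from 29.9 to 6.82 CPM and PIK3R1 rose from 28.8 to 70.8 CPM, while PIK3R2 and INPP4B lay under 1 CPM in every library.

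**Figure D2:**
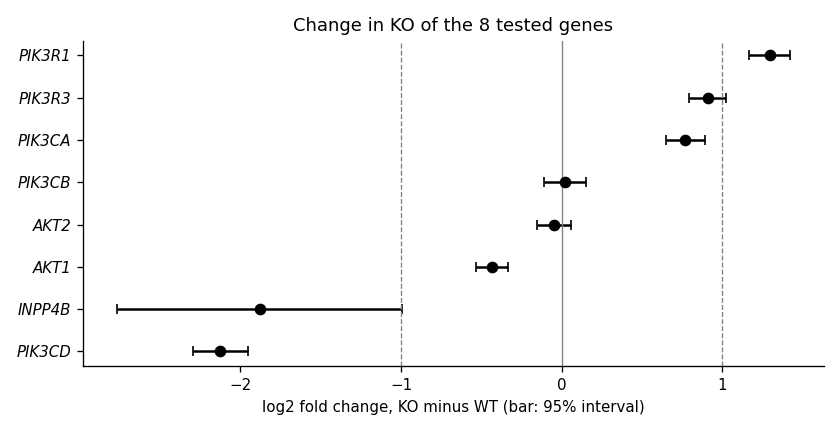
Log2 fold change, KO minus WT, of the 8 tested genes with 95% intervals from edgeR, with dashed lines at -1 and 1. The points run from -2.12 for PIK3CD to 1.30 for PIK3R1, and the intervals of PIK3CB and AKT2 include 0.

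Promoter sequence is shown for PIK3CD and PIK3R1, the catalytic gene that fell and the regulatory gene that rose past both thresholds. PIK3CA is also shown, the only 1 of the 9 whose RefSeq window held a forkhead motif, the kind of site FOXO factors bind. RefSeq windows of 300 bases on GRCh38.p14 (250 before and 50 after the start) were found for all 9 genes. Capitals in the PIK3CD and PIK3R1 sequences mark CG dinucleotides, and in PIK3CA they mark TGTTTAC, the reverse complement of GTAAACA. The motif was chosen after the sequences had been seen.
PIK3CD, chr1:9651481-9651730, plus strand: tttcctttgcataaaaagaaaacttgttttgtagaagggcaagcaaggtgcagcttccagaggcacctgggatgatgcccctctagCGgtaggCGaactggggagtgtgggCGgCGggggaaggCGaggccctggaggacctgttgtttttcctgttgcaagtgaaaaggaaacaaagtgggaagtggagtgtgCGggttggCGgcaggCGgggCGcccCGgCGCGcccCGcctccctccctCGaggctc
PIK3R1, chr5:68215506-68215739, plus strand: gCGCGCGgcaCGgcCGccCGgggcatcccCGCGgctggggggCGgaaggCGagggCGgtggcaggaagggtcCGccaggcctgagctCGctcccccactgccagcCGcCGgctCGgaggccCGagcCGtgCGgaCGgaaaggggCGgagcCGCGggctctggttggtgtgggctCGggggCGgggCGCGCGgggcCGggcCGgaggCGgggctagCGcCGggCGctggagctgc
PIK3CA, chr3:179148197-179148225, plus strand: agttcgttgttTGTTTACacgatgtgagc

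The PIK3CD stretch of 250 bases held 14 CG dinucleotides and the PIK3R1 stretch of 234 bases held 34. Over their whole windows the numbers were 23 for PIK3CD and 42 for PIK3R1, beside a median of 14 over 34943 RefSeq windows. AKT1 had the most of the 9 genes, with 49. The motif in PIK3CA began at position -149 from the RefSeq start, inside a stretch that GENCODE counts as PIK3CA exon. Searched on both strands as GTAAACA, it was present in 1195 of the 34943 windows, or 3.42%. RefSeq gives PIK3CD 3 starts and PIK3R1 4, and counts per gene do not tell which start was used.

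The catalytic subunits moved apart. PIK3CD (ENSG00000171608, chr1:9629889-9729114, plus strand, GRCh38) encodes p110 delta. Its level was 29.1, 29.8 and 30.9 CPM in WT and 6.23, 7.43 and 6.80 CPM in KO. All KO libraries were far below all WT libraries. The log2 fold change was -2.12 (SE 0.0835, 95% interval -2.30 to -1.95, adjusted p 8.15e-21, edgeR), a level 4.36-fold lower in KO. In bulk RNA, fewer cells that express a gene and less RNA per cell cannot be told apart.

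Because PIK3CD is best known from leukocytes, 9 leukocyte markers were read beside it. Of these, 5 had at most 3 counts in every library (PTPRC, CD3E, MS4A1, SPI1 and CD53), and MS4A1 was at 0 throughout. The summed level of the 9 was 24.8 to 29.2 CPM in WT and 8.67 to 9.72 CPM in KO. Nearly all of it came from CORO1A, an actin-binding protein, which fell from 25.9 ± 2.24 to 7.96 ± 0.591 CPM (SD, n = 3). CD14 also passed both thresholds, upwards and through the filter in KO only, from 0.374 ± 0.122 to 0.709 ± 0.241 CPM. The defining leukocyte markers PTPRC, CD3E and MS4A1 were at or near 0 in both groups. The opposite strand of PIK3CD carries the antisense transcript PIK3CD-AS2, with 141, 101 and 52 counts in WT and 90, 86 and 58 in KO. It shares no annotated exon base with PIK3CD.

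PIK3CA (ENSG00000121879, chr3:179148114-179240093, plus strand) encodes p110 alpha. It had 36.0, 38.8 and 38.5 CPM in WT and 66.7, 59.8 and 66.5 CPM in KO. The lowest KO library stood well above the highest WT library. The difference was 0.77 on the log2 scale (SE 0.0592, 95% interval 0.65 to 0.89, adjusted p 4.69e-13, edgeR), a 1.70-fold rise that stayed under the fold threshold. KCNMB3, on the opposite strand, shares 19.8% of the exon bases of PIK3CA and had at most 1 count in any library.

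PIK3CB (ENSG00000051382, chr3:138652698-138834928, minus strand) encodes p110 beta, on the same chromosome as PIK3CA. Its level was 38.6, 43.7 and 40.0 CPM in WT and 44.3, 38.5 and 41.6 CPM in KO, and the groups overlapped. The log2 fold change of 0.02 had an interval of -0.11 to 0.15 (adjusted p 0.805, edgeR).

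Without division by length PIK3CA was above PIK3CB in every KO library. Per kb of exon, PIK3CB was the most abundant of the 3 catalytic transcripts in both groups. Its share of their summed CPM per kb was 49.4% ± 1.36 in WT and 54.3% ± 1.10 in KO (SD, n = 3), but this gain turned into a loss of 0.746 points where counts were not divided by length. The share of PIK3CA was 20.8%, 20.6% and 21.2% in WT and 38.1%, 37.9% and 39.2% in KO. PIK3CD went the other way, from 30.2%, 28.5% and 30.5% in WT to 6.39%, 8.47% and 7.19% in KO. Per kb, PIK3CD thus ranked above PIK3CA in every WT library and below it in every KO library. Without division by length PIK3CA was above PIK3CD in every WT library too, with 36.0 to 38.8 CPM beside 29.1 to 30.9, so the switch of rank depends on the exon length. The ratio of PIK3CA to PIK3CD was 7.47-fold higher in KO, a difference of 2.90 on the log2 scale. The ratio of PIK3CB to PIK3CD was 4.47-fold higher and that of PIK3CA to PIK3CB 1.67-fold higher. The sum of the 3 transcripts was 10.5 ± 0.439 CPM per kb in WT and 9.74 ± 0.520 in KO, with overlapping groups (exact permutation test, two-sided, p = 0.2). In all 7 pairs compared within the catalytic, regulatory and AKT classes the ratios of WT and KO did not overlap. Each had an exact permutation p of 0.1, two-sided and after adjustment over the 7 pairs, the smallest that 3 libraries against 3 allow. Pairs share genes, and 66.4% of all tested genes did not overlap on their own, so the count of 7 says little by itself.

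**Figure D3:**
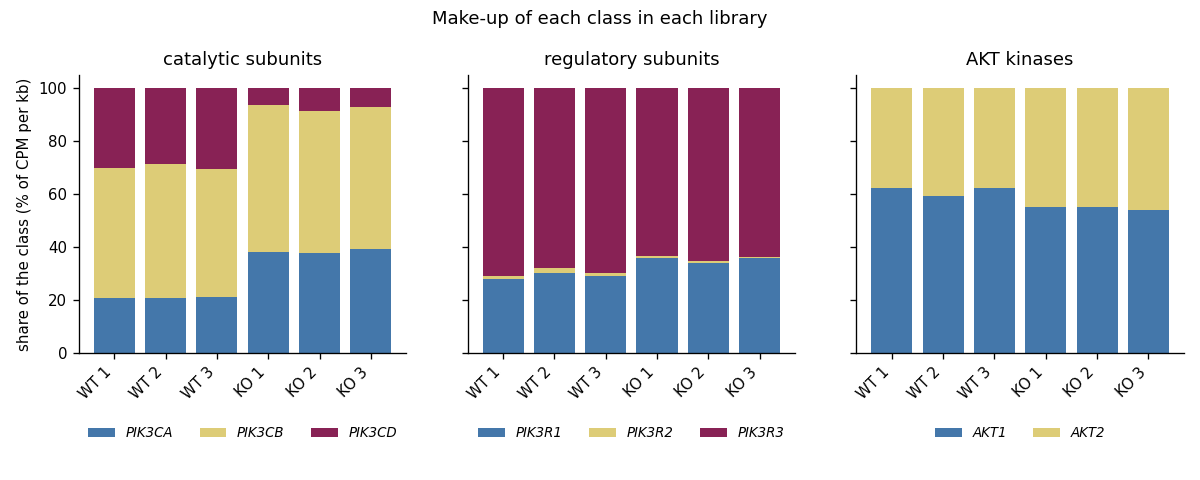
Share of each gene in the summed CPM per kb of its class, in percent, in each of the 6 libraries, for catalytic subunits, regulatory subunits and AKT kinases. The PIK3CD part shrinks from 29.8% on average in WT to 7.35% in KO while the PIK3CA part grows from 20.9% to 38.4%.

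The regulatory subunits hold the catalytic subunits stable and bring them to phosphotyrosine on receptors and adaptors. PIK3R1 (ENSG00000145675, chr5:68215740-68301821, plus strand) encodes p85 alpha and its shorter forms, which gene counts do not separate. It had 26.5, 31.2 and 28.7 CPM in WT and 73.7, 68.1 and 70.6 CPM in KO, with no overlap. The rise was 1.30 on the log2 scale (SE 0.0623, 95% interval 1.17 to 1.42, adjusted p 1.99e-18, edgeR), or 2.45-fold.

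PIK3R3 (ENSG00000117461, chr1:46040140-46133036, minus strand) encodes p55 gamma. Its values were tight, 30.5, 31.6 and 31.2 CPM in WT and 58.9, 59.0 and 56.9 CPM in KO. The log2 fold change was 0.91 (SE 0.0572, 95% interval 0.79 to 1.02, adjusted p 2.74e-15, edgeR), or 1.88-fold. A readthrough gene on the same strand, P3R3URF-PIK3R3, shares 17.5% of its exon bases and had 0 counts in every library.

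PIK3R2 (ENSG00000105647, chr19:18153163-18170532, plus strand), the gene of p85 beta, was counted too rarely to be tested. It had 11, 15 and 4 counts in WT and 7, 9 and 6 in KO. The sums of 30 counts (exact Poisson 95% interval 20.2 to 42.8, counting error only) and 22 counts (13.8 to 33.3) overlap in their intervals. Without the filter the log2 fold change was -0.45 (95% interval -1.29 to 0.39, adjusted p 0.494, edgeR), so no difference was detectable at this depth. Its low count is uncertain in itself. In GENCODE release 44 another gene on the same strand, ENSG00000268173, covers 3942 bases or 76.4% of the exon bases of PIK3R2, and a counter that drops reads falling in 2 genes would leave only the other 1221 bases. That gene had 2 counts in 1 KO library and 0 in the other 5. The annotation release behind the deposited counts is not given in the sources used here.

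The summed level of the regulatory transcripts was 5.82, 6.28 and 6.04 CPM per kb in WT and 12.5, 12.2 and 12.1 in KO. It was 2.03 times as high in KO, without overlap (exact permutation p = 0.1, two-sided). Within that sum PIK3R1 went from 29.1% ± 1.26 to 35.3% ± 1.03 and PIK3R3 from 69.5% ± 1.38 to 64.2% ± 1.000 (SD, n = 3). Per kb, PIK3R3 was the larger part in all 6 libraries. Without division by length PIK3R1 was above PIK3R3 in every KO library, with 68.1 to 73.7 CPM beside 56.9 to 59.0, and below it in every WT library. Which of them is larger in KO thus depends on the exon length. The ratio of PIK3R1 to PIK3R3 was 1.31-fold higher in KO, and the ratios that involve PIK3R2 share its uncertainty.

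AKT1 and AKT2 encode closely related kinases. AKT1 (ENSG00000142208, chr14:104769349-104795751, minus strand) had 138, 132 and 129 CPM in WT and 96.7, 102 and 96.8 CPM in KO. Every KO value lay below every WT value. The change was small and precise, -0.43 on the log2 scale (SE 0.0494, 95% interval -0.53 to -0.33, adjusted p 4.05e-09, edgeR), 1.35-fold lower. AKT2 (ENSG00000105221, chr19:40230317-40285536, minus strand) had 122, 131 and 113 CPM in WT and 115, 121 and 120 CPM in KO, with overlap. Its log2 fold change was -0.05 (95% interval -0.16 to 0.06, adjusted p 0.427, edgeR). The ratio of AKT1 to AKT2 was 1.31-fold lower in KO, and AKT1 made up 61.3% ± 1.65 of their summed CPM per kb in WT and 54.7% ± 0.597 in KO (SD, n = 3). Their sum went from 19.8 ± 0.769 to 16.5 ± 0.479 CPM per kb without overlap (exact permutation p = 0.1, two-sided).

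INPP4B (ENSG00000109452, chr4:142023160-142847432, minus strand) removes the 4-phosphate of PI(3,4)P2, a product of PI3K signalling. Its span of 824273 bases is the longest of the 9. It was barely detected, with 13, 20 and 8 counts in WT and 2, 5 and 4 in KO. In CPM these were 0.474, 0.668 and 0.720 against 0.0814, 0.186 and 0.225, with no overlap. The first KO library was under the floor of 3 counts. The log2 fold change was -1.88 (SE 0.436, 95% interval -2.77 to -0.99, adjusted p 3.68e-04, edgeR). The summed counts were 41 (exact Poisson 95% interval 29.4 to 55.6) and 11 (5.49 to 19.7). INPP4B reached the limit of the filter in 3 WT libraries and 0 KO libraries. With such KO counts it could be tested only if it was higher in WT, and these values do not support the fall on their own. A test against the fold threshold itself did not call it, and a filter of 10 counts in every library removed it.

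The order of the 9 genes by CPM per kb of exon was AKT1, AKT2, PIK3CB, PIK3R3, PIK3CD, PIK3CA, PIK3R1, PIK3R2 and INPP4B in WT. It ran from 12.1 ± 0.410 CPM per kb for AKT1 to 0.0426 ± 0.00889 for INPP4B (SD, n = 3). In KO it was AKT1, PIK3R3, AKT2, PIK3CB, PIK3R1, PIK3CA, PIK3CD, PIK3R2 and INPP4B, from 9.003 ± 0.297 to 0.0113 ± 0.00509 CPM per kb. Per kb, no neighbours in either order overlapped in their libraries, but the order depends on the exon length. Without division by length AKT2 was above AKT1 in every KO library, with 115 to 121 CPM beside 96.7 to 102. In WT these 2 then overlapped. PIK3CA was likewise above PIK3CB in every KO library, with 59.8 to 66.7 CPM beside 38.5 to 44.3. By CPM per kb, PIK3R3 passed AKT2 and PIK3CB in KO, with 7.88 ± 0.165 beside 7.46 ± 0.221 for AKT2. Undivided by length, PIK3R3 was above PIK3CB but below AKT2 in every KO library, with 56.9 to 59.0 CPM. PIK3CD dropped from 3.13 ± 0.0927 to 0.713 ± 0.0629 CPM per kb.

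Around the core, 94 genes in 6 lists were read, of which 93 were listed and 79 tested. Past both thresholds 11 rose and 3 fell, beside the 8.30% and 7.73% of all tested genes. At the adjusted p alone 39 were higher, 22 lower and 18 did not pass, beside 31.9% higher and 32.0% lower over all tested genes. The median log2 fold change was 0.11. Of those past both thresholds, IRS2 passed the filter on low counts only through KO, and PIK3R5 and TXNIP only through WT. INSR and IRS2 stand in 2 of the lists.

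Among 12 receptors and adaptors, which recruit PI3K, 11 were tested, 4 higher, 4 lower and 3 not passing, with a median of -0.02. The shares over all tested genes were 31.9% higher and 32.0% lower. IGF1R, the receptor of insulin-like growth factors, rose by 1.25 on the log2 scale, from 37.4 ± 1.41 to 89.0 ± 3.45 CPM (SD, n = 3). The adaptor SHC1 rose by the same amount from a far higher level, from 698 ± 21.9 to 1655 ± 62.7 CPM. IRS2, an adaptor of the insulin receptor, had 9, 12 and 0 counts in WT and 103, 73 and 49 in KO, with a log2 difference of 3.39. It passed the filter on low counts only through KO, where it was high, so its call is a description. Of 10 other PI3K genes 6 were tested, 3 higher and 3 lower, with a median of -0.09. PIK3R5, the adaptor of the gamma isoform, was the one past both thresholds, with 18, 20 and 15 counts in WT and 4, 12 and 4 in KO, a log2 difference of -1.42. It passed the filter only through WT, so its call too is a description. Its usual partner PIK3CG was at 0 in every library.

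All 12 phosphoinositide phosphatases were tested, 7 higher, 2 lower and 3 not passing, with a median of 0.16. Over all tested genes 31.9% were higher and 32.0% lower. INPP5D, which removes the 5-phosphate of PIP3 and is known from blood cells as SHIP1, rose by 1.68 on the log2 scale, from 1.41 ± 0.263 to 4.27 ± 0.151 CPM (SD, n = 3). Of 18 activators and inhibitors of AKT 14 were tested, 5 higher, 4 lower and 5 not passing, with a median of 0.10. TRIB2, a pseudokinase that binds AKT, rose from 30.3 ± 0.888 to 205 ± 9.40 CPM, by 2.76 on the log2 scale (adjusted p 5.18e-29, edgeR). Its relatives TRIB1 and TRIB3 rose by 0.96 and 0.88. RICTOR, a subunit of the mTORC2 complex that phosphorylates AKT, fell by 0.84 on the log2 scale. TRIB1, TRIB3 and RICTOR were named after their values were seen.

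All 22 AKT substrates and mTORC1 genes were tested, 9 higher, 6 lower and 7 not passing, with a median of 0.03. Beside these counts stand 31.9% higher and 32.0% lower over all tested genes. DEPTOR, an inhibitor of mTOR, rose by 1.60 on the log2 scale from 0.927 ± 0.0360 to 2.83 ± 0.120 CPM (SD, n = 3). FOXO1, a transcription factor that AKT keeps out of the nucleus, fell from 71.6 ± 2.67 to 32.6 ± 0.898 CPM, -1.14 on the log2 scale (adjusted p 4.33e-18, edgeR). FOXO3 and FOXO4, named after their values were seen, rose by 0.78 and 0.64.

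Of 22 FOXO target genes 21 were matched and 16 tested. In KO 12 were higher, 3 lower and 1 did not pass, with a median of 0.68 on the log2 scale. Past both thresholds 6 rose and 1 fell. Over all tested genes the shares were 31.9% higher and 32.0% lower at the adjusted p alone, and 8.30% and 7.73% past both thresholds. These counts include IRS2 and TXNIP, each tested through the filter in 1 group only. SESN3, a sestrin that restrains mTORC1, rose from 6.25 ± 0.612 to 85.3 ± 8.50 CPM (SD, n = 3), 3.80 on the log2 scale (adjusted p 7.87e-28, edgeR). The pro-apoptotic genes BCL2L11 and BBC3 rose by 1.57 and 1.50. The repressor BCL6 rose by 2.73, with 35, 33 and 6 counts in WT and 162, 180 and 152 in KO. The ubiquitin ligase gene FBXO32 rose by 2.18, with 19, 24 and 7 counts in WT and 84, 86 and 60 in KO. IRS2 is given above. TXNIP, a thioredoxin inhibitor, had 18, 17 and 11 counts in WT and 2, 1 and 0 in KO, and WT was 15.5 times KO by summed counts (exact 95% counting interval 4.99 to 78.0). It passed the filter only through WT, and its KO counts were all under the floor of 3. Other factors also act on these genes, and the part of FOXO in these values was not tested.

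**Figure D4:**
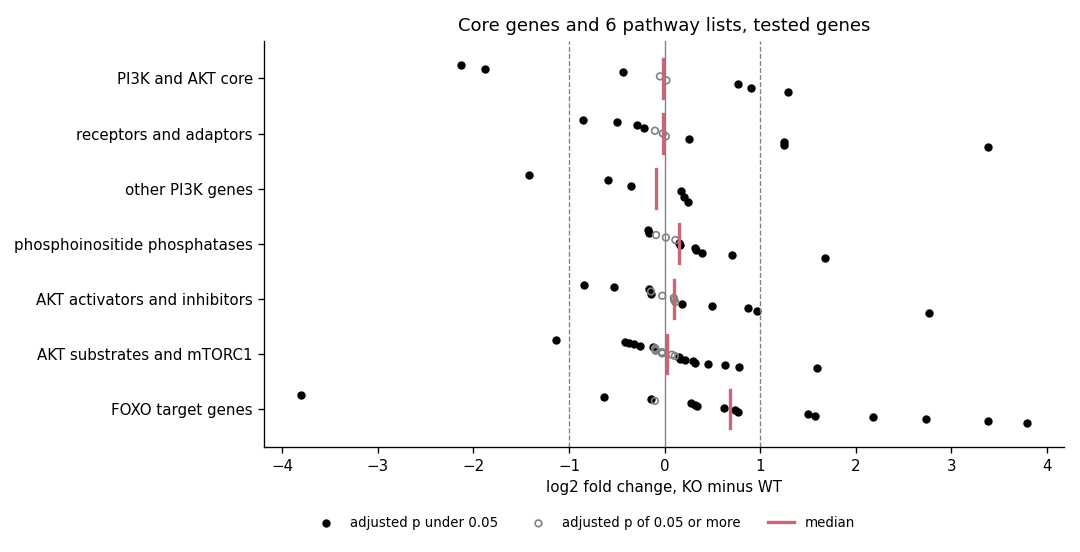
Log2 fold change, KO minus WT, of the 8 tested core genes and of the tested genes of 6 pathway lists, with filled points for an adjusted p under 0.05 (edgeR), red lines at list medians and dashed lines at -1 and 1. Most medians lie near 0, from -0.09 to 0.16, and that of the FOXO target genes lies at 0.68.

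As the KO clone has an altered chromosome number, the 5 nearest tested genes on each side of each core gene were read, ordered by start and including genes that overlap it. Their median log2 fold change ran from -0.23 around PIK3R2 to 0.31 around INPP4B. Around PIK3CD it was -0.10, and of the 10 genes there 3 were higher and 5 lower at the adjusted p alone. Over all tested genes these shares were 31.9% and 32.0%. SPSB1, before PIK3CD, was the lowest of the 10 at -1.34, past both thresholds. TMEM201, which lies before PIK3CD, had a log2 fold change of 0.18, against -2.12 for PIK3CD. On the other side the nearest by start were PIK3CD-AS2, which lies within PIK3CD on the opposite strand, at -0.35, and CLSTN1, which overlaps its end, at -0.03. CTNNBIP1, the first that does not overlap it, was at 0.19. SPSB1, CLSTN1 and CTNNBIP1 were named after their values were seen. Next to PIK3R1, MAST4 had 259, 279 and 77 counts in WT and 1182, 1216 and 934 in KO, a log2 fold change of 2.44, and SLC30A5 on the other side had 0.35. Of the 10 genes around PIK3R1, 7 were higher, 1 was lower and 2 did not pass, with a median of 0.26, beside 31.9% higher and 32.0% lower over all tested genes. INPP4B was tested only through its WT counts, so its own fall is a description. Beside it IL15 had 2, 1 and 1 counts in WT, under the floor of 3, and 17, 26 and 13 in KO. USP38 on the other side had a log2 fold change of 0.42. Copy number was not measured in these data, and its part in the changes was not tested.

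**Figure D5:**
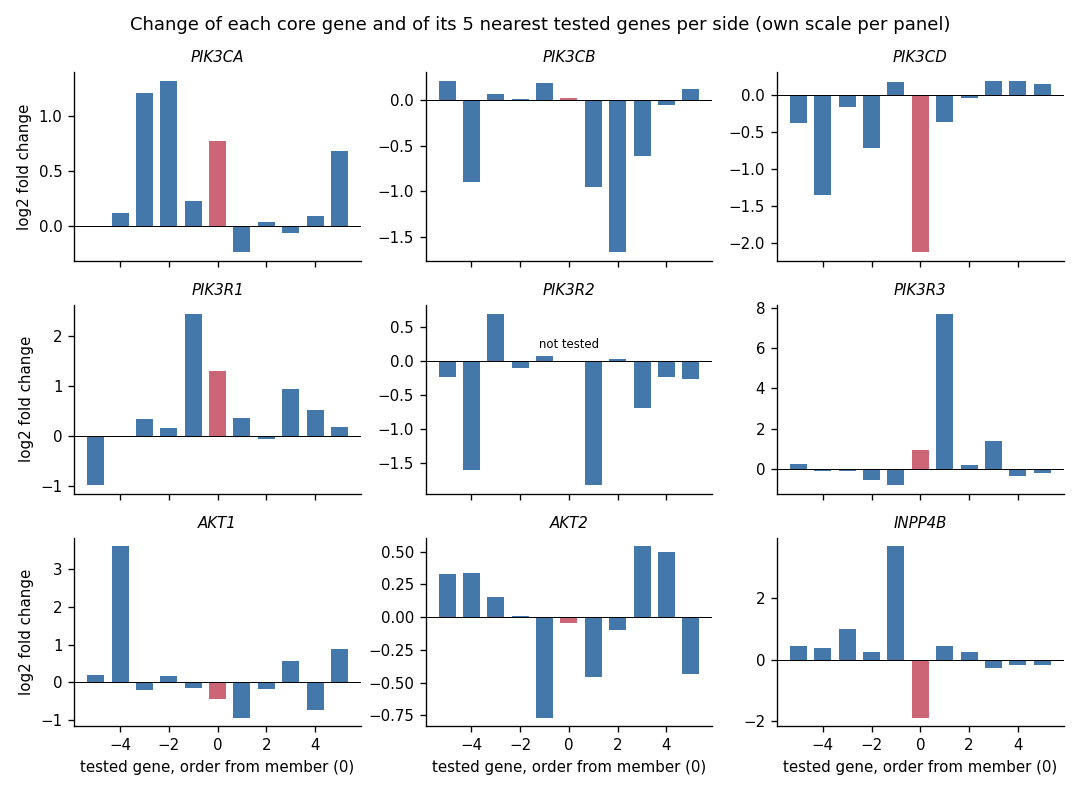
Log2 fold change, KO minus WT, of each core gene (red, at 0) and of the 5 nearest tested genes on each side in chromosome order (blue), ordered by start, with a scale of its own in each panel. PIK3CD stands at -2.12 between neighbours from -1.34 to 0.20, and PIK3R1 at 1.30 beside MAST4 at 2.44.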

How the data were processed

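RNA was measured in 3 WT and 3 KO libraries, grouped by the genotype in the labels. The authors deposited raw counts per gene, made with FastQC, STAR on GRCh38 and HTSeq from stranded, single-end reads of 75 bases. Tool versions, the annotation release and the strand setting of the counter are not given in the sources used here. No normalization had been applied.

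KO and WT were compared with edgeR 4.0.16 under R 4.3.3 (filterByExpr with a minimum count of 10 and a minimum total of 15, TMM scaling, quasi-likelihood test, two-sided, Benjamini-Hochberg adjustment over 16198 genes). Levels between genes were CPM per kb of merged exons, and log2 ratios used a pseudocount of 0.5 counts. Gene models came from GENCODE release 44, promoter windows from RefSeq. Single values were compared by exact permutation. Alternatives were voom/limma 3.58.1, DESeq2 1.42.0, other scalings, filters, lengths and thresholds, and leaving out each library. Simulated data with 200 changed genes among 15894 gave 200 recovered and 0 false calls with edgeR, voom and DESeq2 alike. The changed genes were all well counted, their changes lay beyond the fold threshold, and every gene had the same spread. The simulation therefore does not cover genes with low counts or smaller changes.

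The members and lists were chosen with earlier results of these data known. Named were all 9 members, list genes past both thresholds, the nearest neighbours of called members, the 3 genes most like PIK3CD, and CDK12. A marker of the planned leukocyte list is not reported here.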

Additional observations from a re-analysis of the deposited data

How the results depend on the processing

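PIK3CA, PIK3CD, PIK3R1, PIK3R3, AKT1 and INPP4B kept their direction and their side of the adjusted p of 0.05 under every alternative fitted gene by gene, except that INPP4B could not be fitted with at least 10 counts in every library. With 1 library left out, the log2 fold change ran from -0.035 to 0.077 for PIK3CB and from -0.10 to 0.0013 for AKT2, so neither has a firm direction. The negative values of PIK3CB came without WT library 1 or without KO library 1, and the positive value of AKT2 without WT library 2. For INPP4B it ran from -2.10 to -1.55, but as INPP4B passed the filter only through WT, this range does not make its fall firm.

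With at least 10 counts in every library, where fewer genes are tested, 568 genes rose (1345 before) and 684 fell (1252 before), 1 member fell in place of 2 and 1 pathway list gene fell in place of 3. Against the fold threshold itself (glmTreat) 756 genes rose and 1 member, PIK3CD, fell. The difference in share between KO and WT was 21.5 points for PIK3CA with the longest transcript as length and 22.3 without length (17.5 before), -25.8 for PIK3CD with the longest transcript (-22.4 before), -0.689 and -0.449 for PIK3R2 (-0.841 before), -6.55 for PIK3R3 without length (-5.34 before) and -0.746 for PIK3CB without length (4.89 before). The other 291 values kept their direction and call or, where they were counts, stayed within 1.5 times the value given, the widest being 1883 genes up and 1684 down without the filter, 931 down against the fold threshold, and 2 pathway list genes down against it.

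No paired analysis was possible because the titles run from 1 to 6 across both groups and tie no WT library to a KO library. The depth limits what can be said of PIK3R2 and INPP4B, at 4 to 20 counts per WT library.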

Other observations

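Of the other tested genes, 3 were named for the pattern most like that of PIK3CD, by Pearson correlation of log2 CPM over the 6 libraries. They were TMEM100 (r = 0.9998, from 56.6 to 1.28 CPM), SH3RF2 (r = 0.9998, from 8.53 to 0.616 CPM) and GNPAT (r = 0.9996, from 130.0 to 93.2 CPM). The 6 libraries fall into 2 groups, so the correlation mostly reflects the step between them, and 884 of 16197 genes (5.46%) had r above 0.99.

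Of 7 fibroblast and endothelial markers, PECAM1 and CDH5 had at most 3 counts in any library. The summed level of the 7 was 5139 to 5271 CPM in WT and 2678 to 2812 CPM in KO, nearly all of it collagen, and COL1A1 went from 629 ± 25.1 to 122 ± 9.98 CPM and COL1A2 from 4577 ± 67.0 to 2623 ± 57.0 CPM (SD, n = 3). DCN had 19, 23 and 9 counts in WT and LUM 20, 17 and 6, and both were at 0 in every KO library. VWF went the other way, with 2, 7 and 3 counts in WT and 18, 22 and 10 in KO. DCN and LUM passed the filter only through WT and VWF only through KO. The summed level of the 8 epithelial and ovarian carcinoma markers was 68.2 to 73.9 CPM in WT and 114 to 119 CPM in KO. Most of it was KRT18, from 59.9 ± 1.96 to 103 ± 2.73 CPM, and KRT8 was also higher. EPCAM went the other way, from 3.19 ± 0.794 to 2.17 ± 0.0446 CPM, -0.53 on the log2 scale (edgeR, adjusted p 0.0119). With 1 library left out, its log2 fold change ran from -0.78 to -0.29 and the adjusted p reached 0.217 (edgeR). The part of these markers in the changes of the PI3K and AKT genes was not tested.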
